A study of Mus musculus with 10 samples.

Results

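The 8 genes described here, *Gata4*, *Gata6*, *Sox17*, *Sox7*, *Foxa2*, *Pdgfra*, *Dab2* and *Sparc*, were taken by symbol as a set of primitive endoderm genes, out of 34591 genes in the expression table of mouse embryonic stem cells (mESCs). RNA-seq was available for 10 libraries, 2 from each of 5 lines of male C57/BL6 Bruce-4 mESCs. Besides WT there were a pair of clones with *Dnttip1* knocked out, named D2A7 and D1E6, and a pair with *Elmsan1* knocked out, named E2E8 and E2G7. DNTTIP1 and ELMSAN1 are scaffold proteins of the mitotic deacetylase complex MiDAC, which holds the histone deacetylase HDAC1, and the libraries were made to ask which genes change when either scaffold is lost. Each KO clone was grown from a single Cas9-edited cell, so that what is particular to a clone and what follows from the knockout can be separated only as far as 2 clones per gene allow. All lines, WT included, were kept without feeder cells in 2iL medium, which contains the GSK3β inhibitor CHIR 99021, the MEK inhibitor PD 0325901 and the cytokine LIF. The study calls the libraries of a line biological replicates without saying whether they were separate cultures, and p-values then measure only the spread between these libraries.

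Primitive endoderm is the extraembryonic layer that forms beside the epiblast in the blastocyst and later gives visceral and parietal endoderm. FGF4 from epiblast cells acts through FGF receptors and the MEK and ERK kinases to turn on GATA6, which is followed by GATA4, SOX17 and SOX7, while NANOG marks the epiblast. A MEK inhibitor, as in 2iL medium, blocks this route, and mESCs in this medium are known for low levels of primitive endoderm factors. PDGFRA is a receptor on the surface of primitive endoderm cells, DAB2 is an endocytic adaptor of the endoderm, and SPARC is a secreted glycoprotein of the matrix that parietal endoderm makes in large amounts.

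Levels are given as scaled FPKM, that is fragments per kilobase of exon and per unit of library depth, divided by 1 factor per library. A gene was called in a comparison at a fold change of at least 1.5 on the log2(FPKM + 0.1) scale and an unadjusted limma p under 0.01. At low levels the added 0.1 makes this fold change smaller than the ratio of the FPKM values. The WT libraries held 30940210 and 37721995 fragments on annotated genes, and the KO libraries 48021093 to 86019244. The 10 most abundant genes took 33.2% and 26.5% of the summed FPKM in WT, 32.0% and 31.2% in E2E8 and 19.7% to 22.9% in the other 6 libraries, and the part of this difference in the results was not tested. *Dnttip1* mRNA stood at 8.35 and 8.45 FPKM in WT, at 4.55 and 4.57 in D2A7 and at 2.58 and 2.60 in D1E6. *Elmsan1*, listed under its older symbol *C130039O16Rik*, was at 5.34 and 5.73 FPKM in WT and at 4.62 to 5.13 FPKM in its KO clones. The difference of -0.19 on the log2 scale (SE 0.079, limma adjusted p = 0.188) did not pass the call.

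The genes fell into 2 ranges of level. *Sparc* lay between 101.4 and 173.7 FPKM in all 10 libraries, from rank 387 to rank 709 of all genes. The other 7 genes stayed under 1 FPKM in every library, and their summed level ran from 0.702 to 1.58 FPKM. *Gata4* was the highest of these 7 with a mean of 0.527 FPKM, and *Foxa2* the lowest with a mean of 0.0251 FPKM. *Gata6*, *Sox17* and *Foxa2* rested on 1 to 22 fragments a library. Of the 8 genes, 3 to 5 reached 0.1 FPKM in a given library. The pluripotency genes were far higher, with *Pou5f1* at a mean of 285.4 FPKM and all 10 genes of that list over 1 FPKM. In a bulk RNA sample, a few cells with a high level of a gene cannot be told apart from many cells with a low level.

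**Figure D1:**
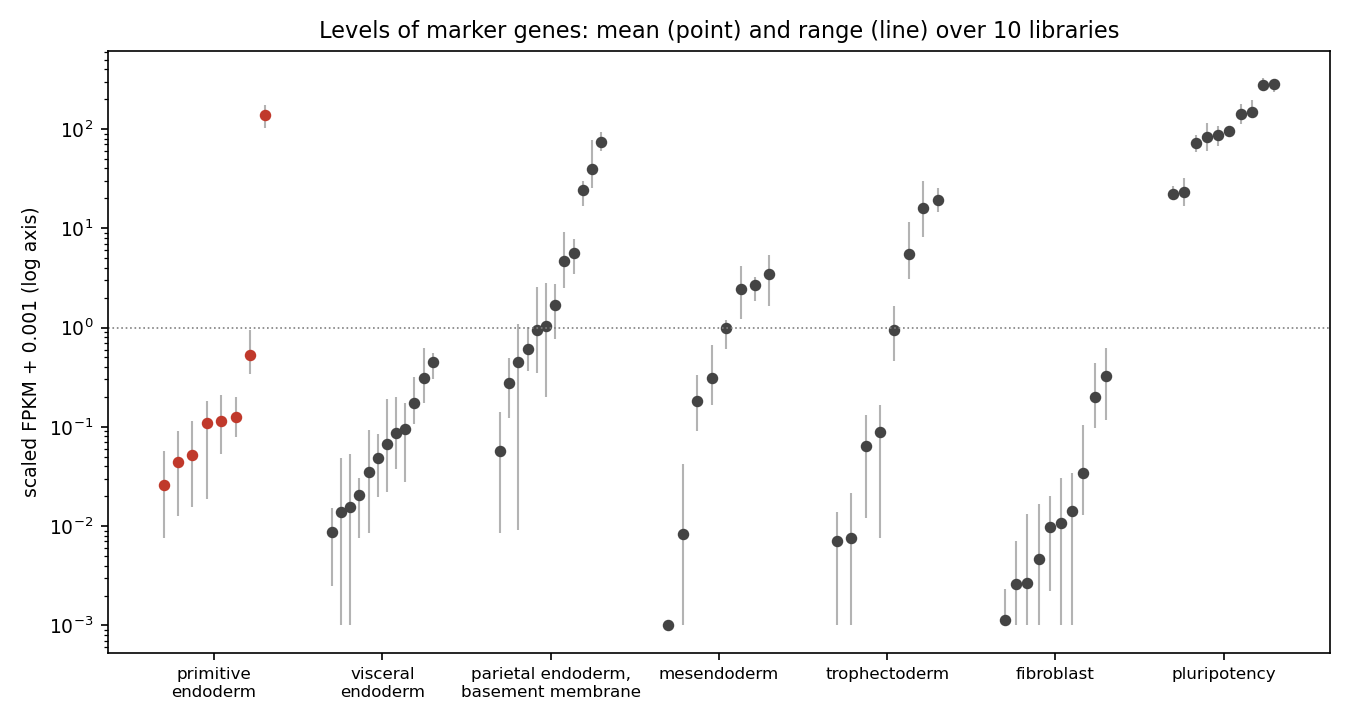
Each point is the mean scaled FPKM of 1 marker gene over the 10 libraries on a log axis (0.001 was added so that genes at 0 can be drawn), and each grey line spans its lowest to its highest library. Of the primitive endoderm genes, in red, *Sparc* alone lies above the dotted line at 1 FPKM, whereas all 10 pluripotency genes do.

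*Sparc*, on the minus strand of chromosome 11 from 55208002 to 55233582 (mm9), was the 1 gene of the set at a high level, and its promoter is shown for that reason. The promoter of *Pdgfra*, on the plus strand of chromosome 5 from 75548316 to 75594229 (mm9), is shown beside it because *Pdgfra* was the receptor of the set and was lower in several clones. The 250 bases before the annotated start were taken from RefSeq on GRCm38.p6, at chr11:55420081-55420330 on the minus strand and chr5:75152001-75152250 on the plus strand, and capitals mark CpG dinucleotides.
Sparc: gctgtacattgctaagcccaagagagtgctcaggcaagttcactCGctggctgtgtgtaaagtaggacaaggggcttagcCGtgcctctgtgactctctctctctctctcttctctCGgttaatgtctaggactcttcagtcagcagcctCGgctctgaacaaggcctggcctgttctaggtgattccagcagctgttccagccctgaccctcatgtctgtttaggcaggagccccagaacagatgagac
Pdgfra: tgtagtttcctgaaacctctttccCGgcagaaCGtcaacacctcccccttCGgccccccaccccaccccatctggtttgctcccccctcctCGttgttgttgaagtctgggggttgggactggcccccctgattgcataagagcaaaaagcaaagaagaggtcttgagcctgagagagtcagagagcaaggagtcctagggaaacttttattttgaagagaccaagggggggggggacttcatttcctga
Each of these windows held 4 CpG dinucleotides, against a median of 6 over 32851 promoters of the same length, and 54.0% and 54.4% G and C, against a median of 52.4%. On both strands they were searched for GATAA, a core bound by GATA factors, ACAAT, a core bound by SOX factors, GTAAACA, a core bound by FOXA factors, and TATAAA, the TATA box, and held none of them. In all promoters of this length the shares with a match were 22.6% for GATAA, 27.7% for ACAAT, 3.17% for GTAAACA and 12.4% for TATAAA. RefSeq promoters were available for 4 of the 8 genes. Among the windows not shown, a window of *Dab2* held 1 GATAA match, and a window of *Foxa2* held 1 GATAA and 1 TATAAA match. The other windows of *Dab2* and *Foxa2* held none of these motifs.

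Among the transcription factors, *Gata4*, which encodes a zinc finger activator of endoderm genes, lies on the minus strand of chromosome 14 from 63817759 to 63890529 (mm9). It was at 0.494 and 0.494 FPKM in WT, 0.950 and 0.898 in D2A7, 0.343 and 0.364 in D1E6, 0.436 and 0.412 in E2E8, and 0.448 and 0.435 in E2G7. Both D2A7 libraries lay above every other library, and the libraries of the other 3 KO clones lay below both WT libraries. The WT values rest on 58 and 74 fragments, with 95% Poisson intervals of 0.375 to 0.639 and 0.388 to 0.621 FPKM. In E2E8 and E2G7 the differences from WT were -0.18 and -0.13 on the log2 scale (limma adjusted p = 0.167 and 0.333) and were not called. In D2A7 *Gata4* rose by 0.78 on the log2 scale against WT (SE 0.10, limma adjusted p = 0.000474). In D1E6 it was 0.39 lower on that scale (95% interval 0.16 to 0.62 lower, adjusted p = 0.017), which is under the 1.5-fold limit. The KO clones of *Dnttip1* thus lay on opposite sides of WT, and the difference between them was 1.17 on the log2 scale (SE 0.10, adjusted p = 6.73e-05).

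*Gata6*, the factor that starts the primitive endoderm programme, lies on chromosome 18. WT libraries held 7 and 11 of its fragments (0.0730 and 0.0900 FPKM) and D2A7 libraries 13 and 12 (0.0655 and 0.0705 FPKM). Lower levels were seen in D1E6 with 0.0129 and 0.0347 FPKM, in E2E8 with 0.0247 and 0.0324 FPKM and in E2G7 with 0.0117 and 0.0217 FPKM. The libraries of these 3 clones lay below all WT and D2A7 libraries, on 2 to 7 fragments each. Summed over its libraries, WT was at 0.0825 FPKM with an exact 95% Poisson interval from 0.0489 to 0.130, and E2G7 at 0.0169 FPKM with an interval from 0.00772 to 0.0320. Such intervals cover counting error only. No library reached 0.1 FPKM, so *Gata6* was not tested. In a fit with no filter on level, the log2 differences of *Gata6* from WT were -0.64 in E2G7 (adjusted p = 0.00994), -0.56 in D1E6 (adjusted p = 0.0154), -0.50 in E2E8 (adjusted p = 0.017) and -0.11 in D2A7 (adjusted p = 0.615), with SEs of 0.099. Of these E2G7 alone passed 1.5-fold. In *Elmsan1* KO the difference was -0.57 (SE 0.081, adjusted p = 0.0418), also short of 1.5-fold. The SEs and p-values of this fit depend on the genes at or near 0 that it takes in. For *Pdgfra* in *Elmsan1* KO, at the same fold change, its unadjusted limma p was 0.00334 against 0.0184 with the filter. For *Sox7* there it was 0.202 against 0.164. With 2 to 13 fragments a library, the *Gata6* values are a description.

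*Sox17* and *Sox7* encode related SOX factors of the endoderm. *Sox17*, on the minus strand of chromosome 1 from 4481009 to 4486494 (mm9), was at 0.0740 and 0.0166 FPKM in WT on 7 and 2 fragments. The values were 0.112 and 0.0595 FPKM in D2A7 and 0.0666 and 0.0983 in E2E8, against 0.0196 and 0.0151 in D1E6 and 0.0355 and 0.0147 in E2G7. The WT libraries spanned most of this range, and *Sox17* did not pass the filter of at least 0.1 FPKM in 2 libraries. Summed over libraries, D2A7 was at 0.0879 FPKM (95% interval 0.0601 to 0.124) and D1E6 at 0.0170 FPKM (0.00625 to 0.0371), intervals of counting error within each clone. In the fit with no filter *Sox17* was called neither between D2A7 and D1E6 (log2 difference 0.65, adjusted p = 0.143) nor between E2E8 and E2G7 (0.54, adjusted p = 0.217).

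*Sox7*, on the plus strand of chromosome 14 from 64562511 to 64569569 (mm9), was at 0.182 and 0.158 FPKM in WT, 0.169 and 0.125 in D1E6, and 0.170 and 0.130 in E2G7. In D2A7 it was at 0.0439 and 0.0512 FPKM and in E2E8 at 0.0318 and 0.0179 FPKM, on 4 to 9 fragments a library. The 4 libraries of D2A7 and E2E8 lay below the other 6 with no overlap. *Sox7* fell by 0.87 on the log2 scale in D2A7 against WT (SE 0.18, adjusted p = 0.00556) and by 1.11 in E2E8 (SE 0.18, adjusted p = 0.00155), and these comparisons share the WT libraries. All 4 libraries of D2A7 and E2E8 were under 0.1 FPKM, so *Sox7* passed the filter through WT, D1E6 and E2G7 alone, and its place among the tested genes already depended on its higher level there. In D1E6 and E2G7 the differences from WT were -0.13 and -0.12, with 95% intervals from -0.56 to 0.29 and from -0.54 to 0.31. Within a knockout, D2A7 was lower than D1E6 by 0.74 (SE 0.18, adjusted p = 0.0136) and E2E8 was lower than E2G7 by 1.00 (SE 0.18, adjusted p = 0.00319). The D2A7 call was lost without WT replicate 1, without D2A7 replicate 1 or with only the 4 libraries compared, where the unadjusted limma p ran from 0.0114 to 0.0124. The difference between D2A7 and D1E6 was no longer called without either D2A7 library or without D1E6 replicate 1.

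*Foxa2*, a forkhead factor of endoderm, lies on the minus strand of chromosome 2 from 147868613 to 147872705 (mm9). It rested on 4 and 3 fragments in WT (0.0563 and 0.0331 FPKM) and on 1 to 6 fragments in each KO library (0.00668 to 0.0374 FPKM). The overlap with WT came from E2E8 replicate 2 alone, and the other 7 KO libraries lay below both WT libraries. In the fit with no filter *Foxa2* was not called. There the difference from WT was -0.31 on the log2 scale in *Dnttip1* KO (95% interval -0.57 to -0.05, adjusted p = 0.24) and -0.37 in D1E6 (95% interval -0.66 to -0.07, adjusted p = 0.11). These intervals have the limit given for *Gata6* and rest on 1 to 6 fragments a library.

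**Figure D2:**
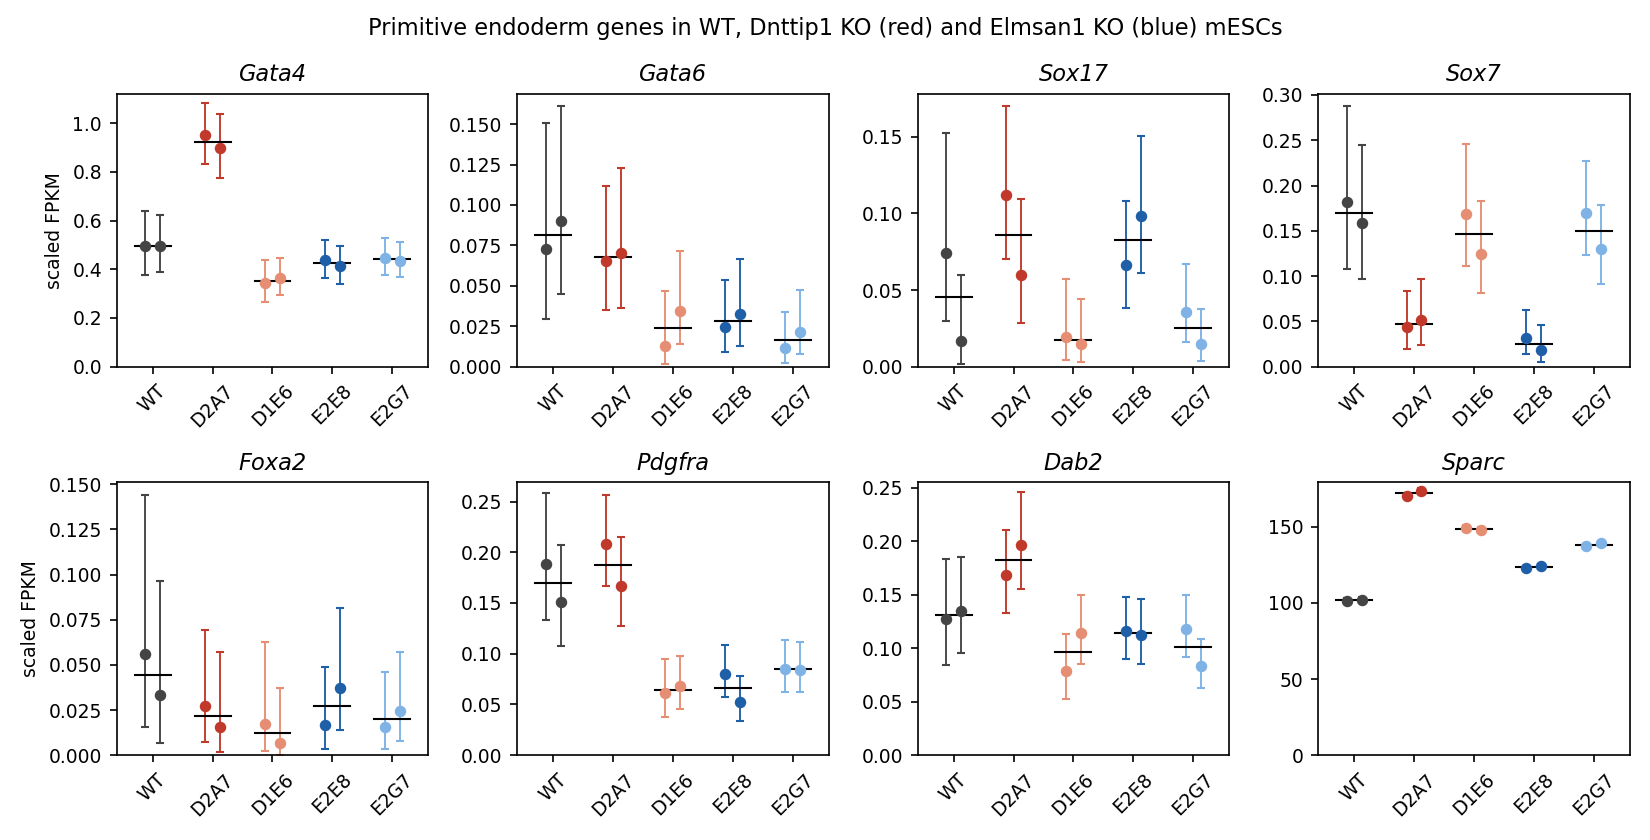
Scaled FPKM of each gene in each library, with linear axes from 0 that differ between panels; bars are exact 95% Poisson intervals of the fragments behind each point (smaller than the point for *Sparc*) and black lines are means of 2 libraries. *Sox7* is low in D2A7 and E2E8, *Pdgfra* is near WT in D2A7 and lower in the other 3 clones, and *Sparc* is above WT in all 4.

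*Pdgfra* encodes the alpha receptor for platelet-derived growth factor. It was at 0.188 and 0.151 FPKM in WT and at 0.208 and 0.167 in D2A7. In D1E6 it was at 0.0612 and 0.0681 FPKM, in E2E8 at 0.0799 and 0.0526, and in E2G7 at 0.0848 and 0.0841. The WT and D2A7 libraries overlapped, and all 6 libraries of the other clones lay below them. Against WT, *Pdgfra* fell by 0.71 on the log2 scale in D1E6 (SE 0.18, adjusted p = 0.0149) and by 0.70 in E2E8 (SE 0.18, adjusted p = 0.0118). In E2G7 the difference was -0.54 (SE 0.18, adjusted p = 0.0433), short of 1.5-fold. D2A7 was higher than D1E6 by 0.80 (SE 0.18, adjusted p = 0.00784), a call lost without D2A7 replicate 1 or D1E6 replicate 1, under quantile normalization (0.56, unadjusted p = 0.0175), with a pseudocount of 1 and with only the 4 libraries compared. All 6 libraries of D1E6, E2E8 and E2G7 were under 0.1 FPKM, so in these clone contrasts *Pdgfra* passed the filter through WT and D2A7 alone, where it was higher. Against WT the D1E6 call was lost without either D1E6 library or WT replicate 1, and the E2E8 call without E2E8 replicate 2 or WT replicate 1.

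Of the other PDGF genes, *Pdgfa*, a ligand of this receptor, was the most abundant at a mean of 28.6 FPKM. The ligand gene *Pdgfb* rose in both knockouts, by 0.94 on the log2 scale in *Dnttip1* KO (adjusted p = 0.044) and by 1.41 in *Elmsan1* KO (adjusted p = 0.0229). *Pdgfd* fell by 1.26 in *Dnttip1* KO (adjusted p = 0.0285), where it passed the filter through WT alone, at 0.246 and 0.318 FPKM against 0.0397 to 0.0980 in the KO libraries. *Pdgfc* fell by 1.12 in *Elmsan1* KO (adjusted p = 0.00227). It was also lower in D1E6, at 4.56 and 4.41 FPKM against 9.04 and 8.81 in WT, and at 6.90 and 6.38 FPKM in D2A7. In all, 2 of 5 tested PDGF genes were called in *Dnttip1* KO and 2 of 4 in *Elmsan1* KO, with 1 in each direction in both. Of all tested genes, 3.26% were called higher and 3.25% lower in *Dnttip1* KO, and 2.74% and 3.68% in *Elmsan1* KO.

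*Dab2* lies on the plus strand of chromosome 15 from 6249788 to 6390712 (mm9), and its entry in the table joins 2 Ensembl genes of that name. It was at 0.127 and 0.135 FPKM in WT, 0.169 and 0.197 in D2A7, 0.0787 and 0.114 in D1E6, 0.116 and 0.113 in E2E8, and 0.118 and 0.0834 in E2G7. The D2A7 libraries were the 2 highest and the other 6 KO libraries all lay below WT. Limma called *Dab2* in no comparison, and the differences of the clones from WT ran from -0.24 to 0.29 on the log2 scale with SEs of 0.18. The difference between D2A7 and D1E6 was 0.53 (95% interval 0.12 to 0.94, adjusted p = 0.0429), and voom on the recovered fragments called it, at 0.89 (adjusted p = 0.00719).

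*Sparc* was higher than WT in every KO library. It was at 101.4 and 101.9 FPKM in WT, 170.4 and 173.7 in D2A7, 149.5 and 148.1 in D1E6, 122.7 and 124.4 in E2E8, and 137.4 and 139.2 in E2G7, on 10240 to 40523 fragments. The libraries of a line differed little, and no 2 lines overlapped, in the descending order D2A7, D1E6, E2G7, E2E8 and WT. In *Dnttip1* KO the mean was 160.4 ± 13.5 FPKM (SD, n = 4) against 101.6 ± 0.374 FPKM (SD, n = 2) in WT. *Sparc* rose 1.57-fold in *Dnttip1* KO, 0.65 on the log2 scale (SE 0.083, adjusted p = 0.0104). With the correlation of libraries within a clone estimated, the adjusted p was 0.071 and the unadjusted p 0.000357. In *Elmsan1* KO the mean was 130.9 ± 8.56 FPKM (SD, n = 4), a 1.29-fold difference (0.36 on the log2 scale, SE 0.069, adjusted p = 0.0255) that stayed under the 1.5-fold limit.

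By clone, *Sparc* was 1.69-fold over WT in D2A7 (adjusted p = 9.94e-07), 1.46-fold in D1E6 (adjusted p = 5.33e-06), 1.22-fold in E2E8 (adjusted p = 6.47e-05) and 1.36-fold in E2G7 (adjusted p = 1.45e-05). Of these D2A7 alone passed 1.5-fold. The clones of a knockout also differed, with D2A7 over D1E6 by 0.21 (adjusted p = 0.000346) and E2E8 under E2G7 by 0.16 on the log2 scale (adjusted p = 0.00126). *Dnttip1* KO was 0.29 over *Elmsan1* KO on that scale (SE 0.074, adjusted p = 0.296).

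**Figure D3:**
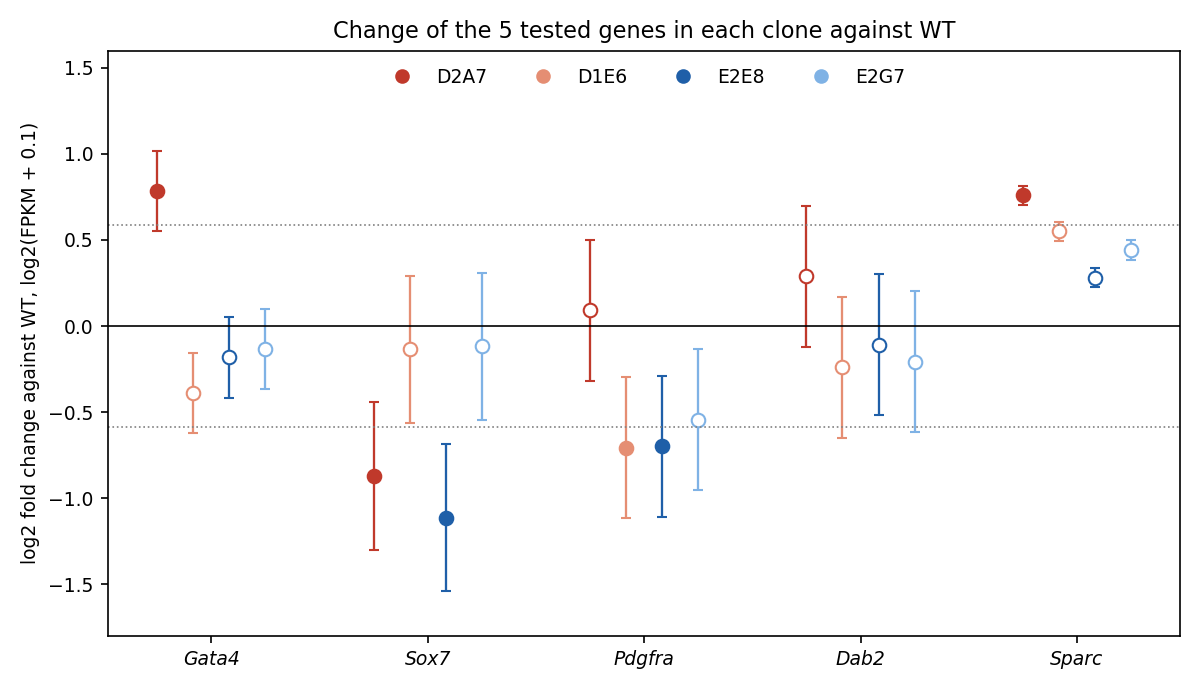
Log2 fold change of the 5 tested genes in each clone against the 2 WT libraries, with limma 95% intervals; filled points passed the call and dotted lines mark 1.5-fold in each direction. *Gata4* and *Sparc* are filled above the line in D2A7, *Sox7* is filled below it in D2A7 and E2E8, and *Pdgfra* in D1E6 and E2E8.

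Counted over the set, 5 of the 8 genes could be tested in each comparison. *Pdgfra* passed the filter of the *Elmsan1* KO comparison through its WT libraries alone, so its place among the tested genes there already depended on a higher level in WT. In *Dnttip1* KO against WT 1 gene, *Sparc*, was called higher and 0 lower, where 3.26% of 17434 tested genes were called higher and 3.25% lower. In *Elmsan1* KO against WT limma called 0 of the 5, while 2 genes, *Pdgfra* and *Sparc*, had an unadjusted p under 0.05. There 2.74% of 17212 tested genes were called higher and 3.68% lower. *Pdgfra* in that comparison was 0.62 lower on the log2 scale (limma adjusted p = 0.0994) and was called by voom on the recovered fragments, without the filter, without the variance trend, and with all 10 libraries in 1 fit. Between the knockouts 0 of the 5 were called by limma and also by voom, 1 (*Sparc*) had an unadjusted p under 0.05, and 1.52% of all tested genes were called.

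By clone against WT, 3 of the 5 genes were called in D2A7 (16.3% of all 17868 tested genes), 1 in D1E6 (11% of all), 2 in E2E8 (16.1% of all) and 0 in E2G7 (9.95% of all; by voom, *Pdgfra* was called). D2A7 and D1E6 differed in 3 of the 5 genes (13.1% of all; by voom in 4, with *Dab2* added) and E2E8 and E2G7 in 1 (12.5% of all). With 5 genes such counts are a description. They also include *Sox7* in D2A7 and E2E8 and *Pdgfra* in D1E6, E2E8 and E2G7, which were under 0.1 FPKM there. These genes passed the filter through the lines where they were higher, so their calls already depended in part on the filter. The median log2 fold change of the 5 was 0.02 in *Dnttip1* KO, as in all tested genes, and -0.16 in *Elmsan1* KO, where the median of all genes was 0.00. Between the knockouts it was 0.29, against 0.01 in all genes.

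The genes that accompany SPARC in the basement membrane showed a clone-dependent picture. *Lamc1*, the laminin gamma chain, was the most abundant of the 12 parietal endoderm and basement membrane genes at a mean of 73.5 FPKM. *Lama1*, a laminin alpha chain, rose from 16.9 FPKM in WT to 27.6 ± 1.85 FPKM (SD, n = 4) in *Dnttip1* KO, by 0.70 on the log2 scale (adjusted p = 0.00652). *Col4a1*, a collagen IV chain, rose there by 0.77 (adjusted p = 0.0327). *Col4a1* lies on chromosome 8, where the median over 673 genes was above WT in all 4 clones on the log2 scale. It was 0.37 above WT in D2A7 and D1E6, 0.35 in E2E8 and 0.36 in E2G7, and the part of this shift in the result was not tested. On the chromosomes of the 8 primitive endoderm genes the median ran from -0.06 to 0.02 over the 4 clones. In *Elmsan1* KO *Nid1*, which links laminin to collagen IV, fell by 0.60 (adjusted p = 0.00638), *Fst*, an activin antagonist, by 1.73 (adjusted p = 0.00104) and *Thbd*, a thrombin receptor, by 0.98 (adjusted p = 0.0516). In the *Dnttip1* KO clone D1E6 these genes were below WT too. *Nid1* was at 26.6 and 28.6 FPKM there against 40.8 and 41.0 in WT, and *Fst* at 2.65 and 2.77 against 8.86 and 9.20. *Thbd* was at 0.122 and 0.226 FPKM against 0.493 and 0.330. In D2A7 *Nid1* was at 76.2 and 78.1 FPKM, *Fst* at 6.70 and 6.17, and *Thbd* at 0.489 and 0.429. Of 11 tested genes, 2 were called higher in *Dnttip1* KO (3.26% of all genes) and 3 lower in *Elmsan1* KO (3.68% of all genes). In D2A7, the clone with the most *Sparc*, 7 of 11 were called higher and 0 lower, against 16.3% of all genes called in either direction. These include *Col4a1*, and the part of the chromosome 8 shift in this count was not tested. In E2E8, with *Sparc* nearest to WT, 1 was called higher and 7 lower, against 16.1% of all genes. *Sparc* was above WT in both. The 11 tested genes include others than basement membrane genes, such as *Fst*, *Thbd* and *Snai1*. *Snai1*, at 0.00810 and 0.0182 FPKM in E2E8, passed the filter through the other lines alone. In E2E8 *Lama1* was at 22.0 and 23.4 FPKM, above 17.3 and 16.6 in WT. *Lamb1*, *Lamc1*, *Nid1*, *Col4a1* and *Col4a2* lay below WT there. Of 6 tested trophectoderm genes, 3 were called higher in D2A7 and 0 lower, against 16.3% of all genes called in either direction. Their part in the *Gata4*, *Sparc* and basement membrane values of this clone was not tested.

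**Figure D4:**
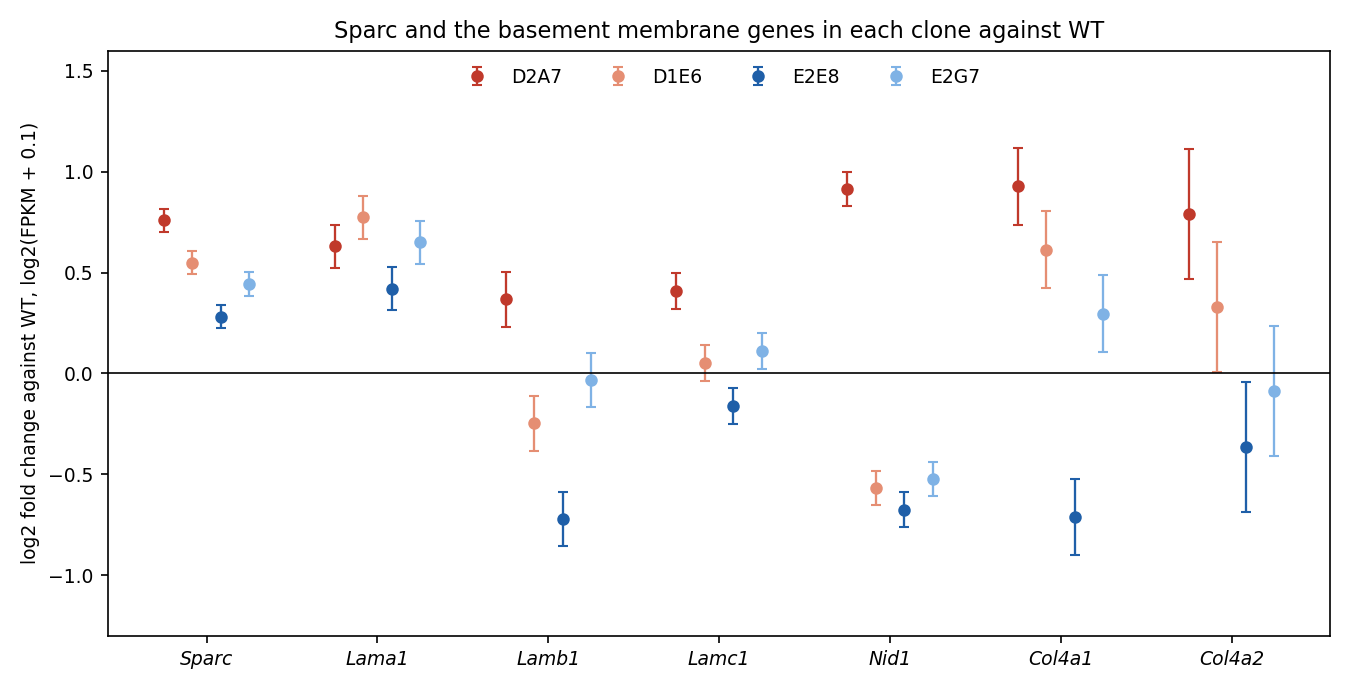
Log2 fold change of *Sparc* and 6 basement membrane genes in each clone against WT, with limma 95% intervals. *Sparc* and *Lama1* lie above 0 in all 4 clones, *Nid1* is above 0 in D2A7 and below 0 in the other 3, and *Col4a1* and *Lamb1* are lowest in E2E8.

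Visceral endoderm markers were as low as the primitive endoderm factors. All 12 were under 1 FPKM, 9 of them under 0.1 FPKM, and their summed level was 1.19 to 1.27 FPKM in WT, 1.18 to 2.00 in *Dnttip1* KO and 1.03 to 1.20 in *Elmsan1* KO. *Lrp2*, an endocytic receptor, was the highest with a mean of 0.448 FPKM. By clone against WT 6 were tested. In D2A7 1 was called higher and 0 lower (16.3% of all genes), and in E2E8 0 and 1 (16.1%). In D1E6 it was 1 and 1 (11%), and in E2G7 1 and 1 (9.95%). Against D1E6, 3 were called higher in D2A7 and 0 lower (13.1%). *Hnf4a* was at 0.189 and 0.157 FPKM in D2A7 against 0.0266 and 0.0208 in WT, and passed the filter through D2A7 alone. Of the 5 tested by knockout, 0 were called in *Dnttip1* KO (3.26% of all genes called higher, 3.25% lower). *Dpp4*, a surface peptidase, fell by 0.82 on the log2 scale in *Elmsan1* KO (adjusted p = 0.0416), where 3.68% of all genes were called lower. It was low in D1E6 too, at 0.173 and 0.195 FPKM against 0.427 and 0.401 in WT, but not in D2A7 (0.626 and 0.475 FPKM).

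The route that induces primitive endoderm was expressed. Of 14 genes from FGF4 to the targets of ERK, 13 were over 1 FPKM, led by the ligand gene *Fgf4* with a mean of 101.6 FPKM. *Fgfr2*, a receptor of this route, fell in both knockouts, by 1.30 on the log2 scale in *Dnttip1* KO (adjusted p = 0.00838) and by 1.02 in *Elmsan1* KO (adjusted p = 0.0472), comparisons that share the WT libraries. It was the 1 gene of the 14 called in each, where 3.25% and 3.68% of all tested genes were called lower. By clone, 3 of the 14 were called higher and 1 lower in D1E6 (11% of all genes called) and likewise in E2G7 (9.95%), while 0 were called higher in D2A7 and E2E8. The 3 higher genes, named after their values were seen, were *Spry4*, *Etv4* and *Dusp6*, which are targets of ERK signalling. *Spry4* was at 0.443 and 0.393 FPKM in WT, 4.06 and 4.12 in D1E6, and 1.86 and 1.97 in E2G7, against 0.635 and 0.638 in D2A7 and 0.501 and 0.454 in E2E8. It rose by 3.02 on the log2 scale in D1E6 (adjusted p = 1.05e-06) and by 1.96 in E2G7 (adjusted p = 6.03e-06). *Etv4* rose by 2.76 and 1.74 and *Dusp6* by 1.15 and 0.66 in these clones. All 3 were called lower in D2A7 than in D1E6 (13.1% of all genes called) and in E2E8 than in E2G7 (12.5%). *Etv5*, a further ERK target among the 14 and far more abundant, did not share this rise. It was at 84.5 and 80.6 FPKM in WT, 76.5 and 76.6 in D1E6, and 86.5 and 83.1 in E2G7.

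Markers of other cell types were read in the same libraries. Of 10 fibroblast genes, 0 reached a mean of 1 FPKM, with *Twist1* the highest at a mean of 0.320 FPKM. Their summed level was 0.551 to 0.589 FPKM in WT, 0.329 to 1.20 in *Dnttip1* KO and 0.380 to 0.564 in *Elmsan1* KO, and *Col3a1*, *Twist2*, *Prrx1* and *Lum* were at 0 in WT. The 8 trophectoderm genes summed to 30.1 to 32.0 FPKM in WT, 48.0 to 57.5 in *Dnttip1* KO and 32.8 to 43.0 in *Elmsan1* KO, with *Tead4* the highest at a mean of 19.4 FPKM and 0 called against WT in either knockout. In D2A7 the genes called higher, named after their values were seen, were *Krt8* and *Krt18*, which encode keratins of simple epithelia, and *Ascl2*. *Krt8* was at 11.9 and 10.9 FPKM in WT and 29.7 and 26.5 in D2A7, and *Krt18* at 4.38 and 3.96 in WT and 11.3 and 11.5 in D2A7, or 1.29 and 1.43 higher on the log2 scale (adjusted p = 7.43e-06 and 1.33e-05). Of 6 tested mesendoderm genes, 1 was called higher and 1 lower in *Dnttip1* KO (3.26% and 3.25% of all tested genes). In *Elmsan1* KO 2 of the 6 were called higher and 2 lower (2.74% and 3.68% of all). Among the mesendoderm genes *Cxcr4* was the highest at 3.44 FPKM and *Cer1*, which was not tested, was listed at 0 throughout. *T* fell by 1.16 in *Dnttip1* KO (adjusted p = 0.0225) and by 0.95 in *Elmsan1* KO (adjusted p = 0.0571), and *Hhex* rose by 0.69 (adjusted p = 0.0271) and 0.70 (adjusted p = 0.0314). *Eomes* rose by 0.70 (adjusted p = 0.00905) and *Gsc* fell by 1.52 (adjusted p = 0.00255) in *Elmsan1* KO. D1E6 shared both changes, with *Eomes* at 3.23 and 3.21 FPKM against 1.84 and 1.89 in WT. *Gsc* was at 1.34 and 1.61 FPKM there against 3.93 and 4.09. In D2A7 *Eomes* was at 1.97 and 2.25 FPKM and *Gsc* at 4.17 and 4.08. The 10 pluripotency genes summed to 1330 to 1386 FPKM in WT, 1196 to 1362 in *Dnttip1* KO and 1070 to 1209 in *Elmsan1* KO, and 0 were called in either.

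Genes related to the set by sequence were measured too. Of 11, *Gata2* was the most abundant with a mean of 5.75 FPKM and rose by 0.79 on the log2 scale in *Dnttip1* KO (adjusted p = 0.0572). By clone it was highest in E2E8, at 12.0 and 12.4 FPKM against 2.71 and 2.49 in WT, and rose there by 2.19 (adjusted p = 1.18e-06). *Gata2* lies on chromosome 6, where the median over 556 genes was 0.38 above WT in E2E8, 0.42 in D1E6 and 0.28 in E2G7. In D2A7 this median was 0.08 below WT, and the part of the shift was not tested. In E2E8 5 of 7 related genes were called, 2 higher and 3 lower, against 16.1% of all genes. Among the 7, *Gata1* was at 0 and 0.0242 FPKM in E2E8 and *Gata3* at 0.0132 and 0.0111 FPKM. Both passed the filter through other lines alone, where they were higher, so this count depends in part on the filter. *Smoc1*, a secreted relative of *Sparc*, fell by 2.00 in *Elmsan1* KO (adjusted p = 0.00144). It was also low in D1E6, at 0.602 and 0.856 FPKM against 4.17 and 3.55 in WT, and at 2.12 and 2.04 FPKM in D2A7. By knockout *Gata2* and *Smoc1* were the calls, among 7 related genes tested in *Dnttip1* KO and 6 tested in *Elmsan1* KO. Of all tested genes, 3.26% were called higher in *Dnttip1* KO and 3.68% lower in *Elmsan1* KO. *Foxa1*, a forkhead relative of *Foxa2*, stayed at or under 0.0413 FPKM, and *Gata5* was at 0 in both WT libraries.

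The pattern of *Sparc* over the 10 libraries was most like that of *Myh7b*, *Slc6a7* and *Nktr*, with Pearson r of 0.991, 0.986 and 0.985 on the log2 scale among 12214 genes of at least 1 FPKM. These points share 5 lines and the libraries' depths. *Myh7b* was at 1.06 to 1.15 FPKM in WT and at 3.11 and 3.86 FPKM in D2A7. *Slc6a7* was at 2.60 to 2.86 FPKM in WT and at 6.70 and 7.79 FPKM in D2A7. On the opposite strand, *1010001N08Rik* overlaps *Gata6* and *Gm16311* overlaps *Dab2*, and both were listed at 0 in all 10 libraries.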

How the data were processed

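RNA-seq of 10 mESC libraries was used as the FPKM table that the authors deposited. Per the labels and the study's methods, total RNA was made into stranded, ribosome-depleted paired-end libraries, sequenced on 1 of several instruments (which is not given per library), mapped to NCBIM37 (mm9), counted with HTSeq and analysed with edgeR 3.16.5 and limma in R 3.3.1. The stated annotation is a later GENCODE release, but the gene IDs and exon lengths matched GENCODE vM1 for 97.8% of 34591 genes, and FPKM values under 100 steps came back as whole fragments, within 0.05, for 98.3% to 98.5% of values. Depth was read from these.

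FPKM was divided by a median-ratio factor, set on the 11270 genes that no library had under 1 FPKM. A gene entered a fit if 2 or more of its libraries reached 0.1 FPKM. Tests used limma 3.58.1 on values of log2(FPKM + 0.1) (R 4.3.3, variance trend, two-sided, Benjamini-Hochberg over all genes tested). The knockouts were fitted as 4 against 2 or 4 against 4 libraries, which treats the libraries of 2 clones as independent, and clone contrasts in 1 fit of 5 lines. Fits were tested on simulated data. Genes and lists were chosen with earlier results of these data known. Named genes are the 8 members, called and most abundant genes of each list, the 3 genes most like *Sparc*, and genes overlapping a member. *Elmsan1* was matched through RefSeq synonyms. Intervals cover counting error only.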

Additional observations from a re-analysis of the deposited data

Results flagged for a closer look

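The clones of a knockout differed in 4 tests of the genes described. Between the *Dnttip1* KO clones, D2A7 minus D1E6 was 1.17 on the log2(FPKM + 0.1) scale for *Gata4*, -0.74 for *Sox7* and 0.80 for *Pdgfra*. Between the *Elmsan1* KO clones, E2E8 minus E2G7 was -0.997 for *Sox7*. In limma these differences passed 1.5-fold and an unadjusted p under 0.01, against 13.1% and 12.5% of all tested genes. *Sox7* in D2A7 and E2E8 and *Pdgfra* in D1E6 were under 0.1 FPKM, and passed the filter through lines where they were higher.

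In the 4 *Elmsan1* KO libraries the lowest or highest value stood apart for 2 genes. The gap to the nearest library, as a share of the range, was 0.846 for *Pdgfra*, where E2E8 replicate 2 was lowest, and 0.833 for *Dab2*, where E2G7 replicate 2 was lowest. For 4 independent values chance gives such a gap in about 1 of 20 groups. The 4 libraries here are 2 from each of 2 clones, so this share need not hold. All 8 genes were searched in both knockouts, and these values rest on 24 and 53 fragments.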

How the results depend on the processing

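With 5 tested genes a count moves by 1 easily, and apart from *Sparc* the genes lie near the filter, so a pseudocount or a filter on level decides what can be called. *Sparc* kept its direction under every alternative run, and its calls did not change. In *Elmsan1* KO against WT, 0 genes were called, but 1 (*Pdgfra*) without a filter, 1 without the variance trend, 1 with voom on recovered fragments and 2 (with *Sox7*) with all 10 libraries in 1 fit. With a pseudocount of 1 the count was 1 in D2A7 against WT and 0 in D1E6 against WT, E2E8 against WT, D2A7 against D1E6 and E2E8 against E2G7. With genes of a mean of at least 1 FPKM only, which leaves *Sparc*, it was again 1 in D2A7 and 0 in those 4 comparisons. With only the 4 libraries compared it was 0 in D1E6 against WT, 1 in E2E8 against WT and 1 in D2A7 against D1E6. In E2G7 against WT it was 1 without a filter (*Gata6*) and 1 with voom (*Pdgfra*). Between D2A7 and D1E6 it was 4 with voom (*Dab2* added) and 2 under quantile normalization (without *Pdgfra*). Leaving out 1 library at a time gave 0 to 1 genes in D1E6 against WT, 1 to 2 in E2E8 against WT and 1 to 3 in D2A7 against D1E6.

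Signs turned only for differences that were not called. Under quantile normalization these were *Dab2* in *Dnttip1* KO (-0.065 on the log2 scale), *Pdgfra* in D2A7 (-0.12), *Gata4* and *Sox7* in E2G7 (0.018 and 0.021) and *Dab2* between E2E8 and E2G7 (-0.057). Leaving out 1 library gave ranges of -0.011 to 0.40 for *Gata4* and -0.088 to 0.16 for *Dab2* in *Dnttip1* KO, -0.080 to 0.32 for *Sox7* between the knockouts, -0.010 to 0.19 for *Pdgfra* in D2A7 and -0.027 to 0.22 for *Dab2* between E2E8 and E2G7. The causes were not tested.

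The replicate numbers shared by the lines do not pair the libraries, since the correlations of their deviations ran from -0.14 to 0.19 over pairs of lines. With the replicate block *Sparc* stayed the 1 gene called in *Dnttip1* KO, 0 were called in *Elmsan1* KO and between the knockouts, and no count by clone changed. Over all genes the block moved the *Dnttip1* KO calls from 1135 to 897 and those between the knockouts from 268 to 171. The correlation of libraries within a clone was 0.704 to 0.856, and fits with it called 538 genes in *Dnttip1* KO, 486 in *Elmsan1* KO and 54 between them, against 1135, 1106 and 268. Voom on recovered fragments called 1025, 946 and 275.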
